A study of Bos grunniens with 6 samples.

Results

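Wide internal-exon m6A peaks are the listed peaks of cattle-yak testis that were annotated to an exon lying between the first and the last exon of its transcript and that spanned from 1001 to 50000 bp of the genome. They were chosen by 2 entries of the peak list, the annotation (exon k of n, with n of at least 3 and k neither 1 nor n) and the width. The rule took 4989 of the 16186 listed peaks (30.8%, 95% interval 30.1% to 31.5%), or 43.8% of the 11386 peaks annotated to any exon. They fell on 3553 of the 8986 gene identifiers with a peak (39.5%). Internal exons held 7713 peaks in all, and the remainder were 2565 narrow peaks of at most 1000 bp and 159 peaks over 50000 bp. Below, "wide peaks" means the 4989 peaks and "narrow peaks" the 2565, and intervals are 95% Wilson intervals for shares and order-statistic intervals for medians. Neither peaks nor genes are replicates, so the intervals speak of counting error alone.

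N6-methyladenosine (m6A) is a methyl mark on adenosines inside messenger RNA. It is placed by a nuclear writer complex built around METTL3 and METTL14, removed by the erasers FTO and ALKBH5, and bound by reader proteins of the YTH and IGF2BP families that act on splicing, export, translation and decay of the transcript. In mammals the mark is known to gather in long internal exons, near stop codons and in 3' UTRs, and writers, erasers and readers are needed for male germ cells to develop in mice.

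The tissue was testis obtained by castration from 3 male cattle-yaks (TES5, TES6 and TES7) aged 5 years. Cattle-yaks are hybrids of yak and cattle whose males are sterile, and the animals formed 1 group without any treatment. Fragmented RNA of each animal was sequenced once after enrichment with an anti-m6A antibody (the IP library) and once without it (the input library), 6 libraries in all. The peaks stood in 1 list for the group without scores or values per animal, so the spread between animals could be given for gene expression (FPKM of the input libraries) and not for a peak. Bulk tissue was used, in which fewer cells of a type and less RNA per cell cannot be told apart.

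The label of an internal-exon peak was checked against the coordinates of the peaks. A peak with a width in this range can cover several exons, and the annotation names only 1 of them. Among the 4856 wide peaks whose exon belonged to the listed transcript, 426 (8.77%, 8.01% to 9.60%) reached the 3' end of that transcript and so overlapped its last exon as well. Within 200 bp of the 3' end there were 816 (16.8%, 15.8% to 17.9%), against 9.45% of the narrow peaks (8.36% to 10.7%), and these intervals do not overlap. From the same centre a wider peak comes nearer to the end, so this difference follows in part from the width in the rule. A peak over the start site is annotated to the 5' UTR or the first exon, so the rule itself left such peaks out, and nothing can be read from their absence at that end. At the 3' end the rule left out the 3373 peaks annotated to the 3' UTR. The shares at the 3' end are therefore of the remaining peaks alone. The 816 peaks near the 3' end were annotated to an exon a median of 2 exon numbers before the last, and 339 of them to the last exon but one. On *CEP350*, for example, the peak annotated to exon 35 of 37 ran from 60658722 to 60669359 on chromosome 14 of LU_Bosgru_v3.0, and the listed transcript ends at 60669409. On *CROCC*, the peak from 599782 to 608285 on chromosome 2 was annotated to exon 31 of 38, and the listed transcript ends at 608335. The exon number of a wide peak is therefore not its full extent and can be that of its most upstream exon. Whether this holds for wide peaks in general was not tested, and the exon positions given here rest on that number.

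The median width of the wide peaks was 4450 bp (4240 to 4632), with quartiles of 2190 bp and 9256 bp. Peaks of over 10000 up to 20000 bp made up 14.6% of them, and those of over 20000 bp 8.12%. The width bounds of the rule cut through a continuous range. The narrowest wide peaks lay on *TSHZ1* (1001 bp), *ACSL5* (1005 bp), *CASZ1* (1007 bp), *MYBBP1A* (1008 bp) and *GLI3* (1010 bp), while peaks on *NCAPH2* (1000 bp), *P4HTM* (1000 bp) and *ZBTB47* (999 bp) were just outside. At the upper bound, *SCLT1* (49994 bp), *RGMA* (49883 bp), *TRIQK* (49740 bp), *FARP1* (49675 bp) and *ZNF827* (49593 bp) carried the widest ones, and *YAP1* (50035 bp), *MAN1A1* (50055 bp) and *ATRX* (50556 bp) were just outside. Symbols are those of the peak list, not checked against another annotation. The list gives the symbol *RGMA* to 2 gene identifiers on chromosome 17, and the transcript of the one named here has 39 exons, so that symbol is uncertain.

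**Figure D1:**
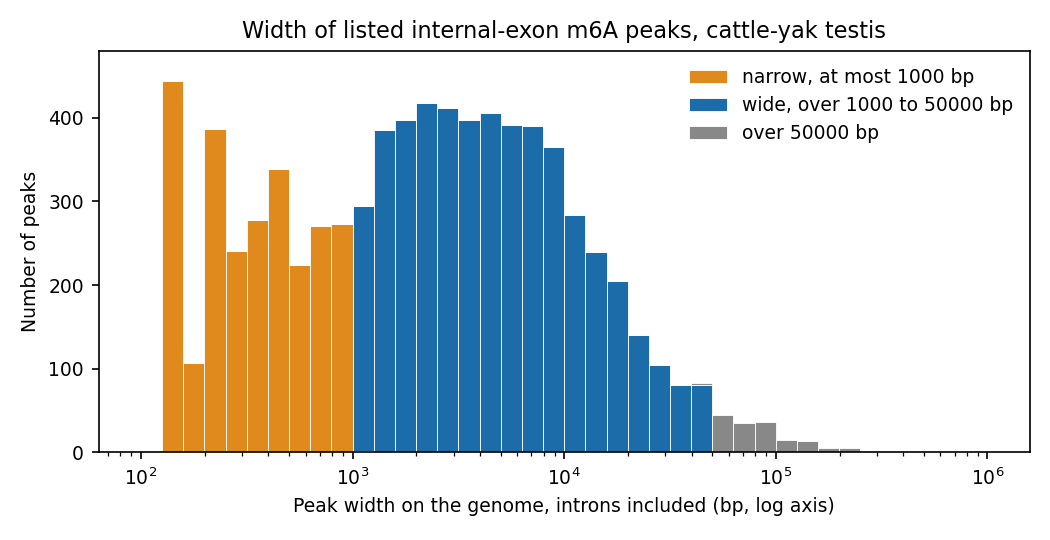
Number of internal-exon peaks (vertical axis) by width on the genome in bp (horizontal log axis), with the narrow, wide and over 50000 bp peaks in separate colours. Each bin from 1259 to 10000 bp holds between 365 and 418 wide peaks, and the counts run on without a gap across 1000 bp and 50000 bp.

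Transcripts with wide peaks were long and had many exons. The rule asks for a width over 1000 bp with introns counted, so the longer spans follow in part from the rule. Transcripts were counted once for each peak. The annotated transcript of a wide peak had a median of 17 exons (quartiles 10 and 25, at most 166), against 13 exons (13 to 14) for narrow peaks. The listed transcript spanned a median of 58856 bp (57114 to 60525), against 39672 bp (36852 to 42575). The span per exon, which counts introns, had a median of 3277 bp for wide peaks (3199 to 3383) and 2582 bp for narrow ones (2437 to 2778). A wide peak thus covered a median of 1.49 times the span per exon of its transcript (1.44 to 1.55), and 65.3% of the wide peaks were wider than the span per exon. They covered a median of 8.98% of the transcript span (8.57% to 9.32%).

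When the peaks were ordered by span per exon and cut into 5 groups of equal size, the median width of the wide peaks was 2295 bp, 3785 bp, 5210 bp, 6115 bp and 8318 bp, from the most compact transcripts to those with the most genome per exon. Spearman's rank correlation across the 4856 peaks was 0.40 for width against span per exon and 0.01 for width against the number of exons, given as a description, since width and span per exon both count introns. How much of a wide peak lies in exons was not measured.

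By exon number, the labels of the wide peaks were spread over the internal exons almost as if each were equally likely. Each peak was placed by its 1 label, also where it covers several exons. For transcripts with at least 4 exons the exon was placed on a scale from 0 (exon 2) to 1 (the last exon but one), and the median was 0.5 (0.49 to 0.5) over 4921 wide peaks. Exon 2 held 11.1% of them (10.2% to 12.0%) and the last exon but one 9.04% (8.27% to 9.88%), where 10.01% would fall on each if the internal exons of a transcript were equally likely. The interval of exon 2 lies slightly above that value and that of the last exon but one slightly below it. The narrow peaks were placed towards the ends. Exon 2 held 15.1% of them (13.7% to 16.6%) and the last exon but one 17.8% (16.3% to 19.3%), where 13.2% would fall on each. With the scale cut into 5 equal parts, the middle part held 18.1% of the wide peaks (17.0% to 19.2%), where equally likely exons would give 18.2%, and 14.7% of the narrow peaks (13.3% to 16.2%), where they would give 17.2%.

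Of the 816 wide peaks within 200 bp of the 3' end, 339 were annotated to the last exon but one, so the nearly even spread includes them. Among the 4040 of the 4856 wide peaks that lay farther from the 3' end, again leaving out transcripts with 3 exons, 3.12% were at the last exon but one and 12.1% at exon 2, and the median position was 0.42. This alternative was chosen after the data were seen, and it lowers the share of the last exon but one by its construction.

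Along the genome, the centres of the wide peaks lay towards the 3' end of the transcript span. The median centre was at 71.6% of the span from the start site (70.5% to 72.8%), against 67.7% for narrow peaks (65.8% to 69.5%). With the span cut into 5 equal parts, the part nearest to the start site held 5.85% of the wide peaks (5.23% to 6.54%) and 12.0% of the narrow ones (10.8% to 13.3%). Part 4 held 25.2% (24.0% to 26.4%) and 21.1% (19.5% to 22.7%), and part 5, nearest to the 3' end, 37.1% and 36.6%. Wide peaks were rarer than narrow ones in the part nearest to the start site and more frequent in part 4, and in both parts the intervals do not overlap. The rule left out peaks over the start site, which puts the centre of a wider peak farther from it. The lower share near the start site therefore follows in part from the rule. Peaks annotated to the 3' UTR (3373) or to the last exon (1177) were left out by the rule too. How much of the other differences follows from the rule was not measured. The median was 74.2% for 2530 peaks of plus strand transcripts and 68.5% for 2459 of the minus strand. With the peaks near the 3' end left out it was 65.9%, lower by construction.

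**Figure D2:**
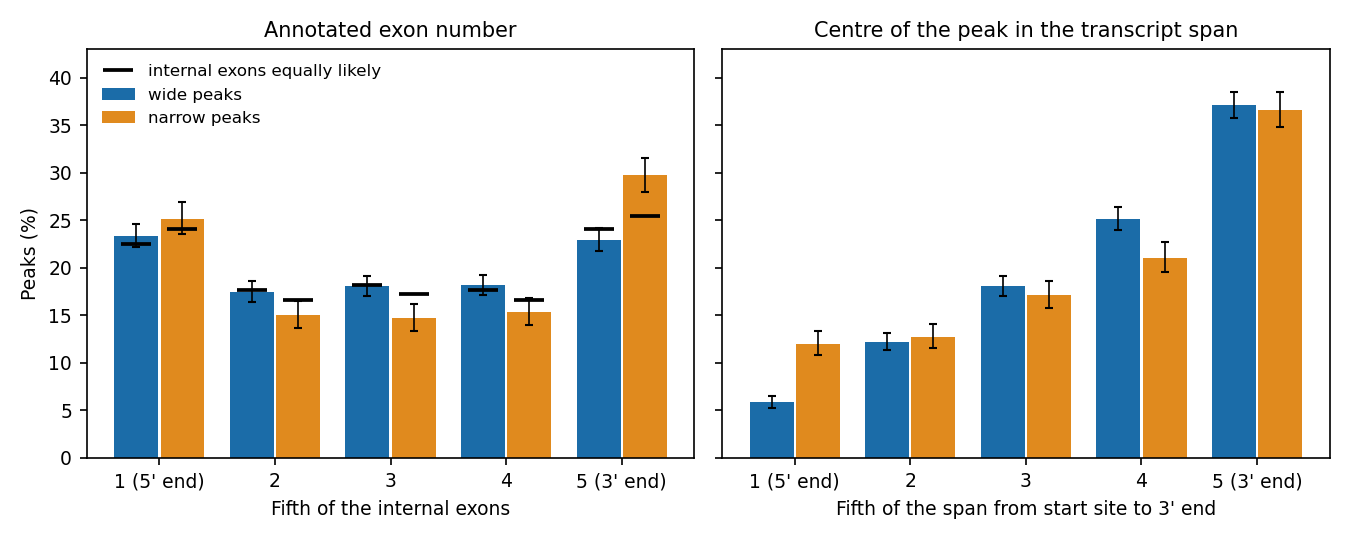
Percent of wide and narrow internal-exon peaks (vertical axis) in 5 equal parts of the internal exon numbers (left) and of the transcript span by the centre of the peak (right), with 95% Wilson intervals as error bars and black marks for equally likely internal exons. Wide peaks stay close to the marks, with 23.4% in the part nearest to the 5' end and 22.9% in that nearest to the 3' end, while by span their share climbs from 5.85% to 37.1%.

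Width and position were tied to each other. Wide peaks annotated to exon 2 had a median width of 5971 bp (4887 to 6775), those of exons in between 4672 bp (4472 to 4848), and those of the last exon but one 2487 bp (2209 to 2860). In 4 groups of equal size by width, from the narrowest to the widest, the mean exon position fell from 0.56 to 0.43 on the plus strand and from 0.56 to 0.39 on the minus strand, so the exon number was lower for wider peaks on both strands. Labelling by the most upstream exon, as on *CROCC*, would lower the number of a wider peak, and its part in this order was not tested.

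Most genes carried a single wide peak. Of the 3553 genes, 2594 had 1 (73.0%, 71.5% to 74.4%), 651 had 2, 219 had 3, 46 had 4 and 43 had 5 or more. The 959 genes with 2 or more (27.0%, 25.6% to 28.5%) held 48.0% of the wide peaks. Where 2 wide peaks were neighbours on a transcript, the annotated exon numbers followed their order on the genome in 1336 of 1352 pairs, were the same in 16 and were reversed in 0. The exon number advanced by a median of 5 exons (5 to 6) from one to the next, and the gap between them had a median of 6272 bp (5681 to 6928). In 120 of 1351 gaps (8.88%) it was at most 200 bp, the fragment length used in peak calling. With such neighbours joined there were 4864 stretches, and 25.5% of genes had 2 or more, an alternative chosen after the data were seen.

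The genes with the most wide peaks encode very large proteins of the cytoskeleton and the centrosome. *SYNE2* (ENSBGRG00000011817), the nuclear envelope protein nesprin-2 that ties the nucleus to actin, carried 13 of them. They lay on chromosome 11 between 65633292 and 65853237, inside a listed transcript of 116 exons that spans 65556636 to 65857618 on the plus strand, and were annotated to exons from 19 to 109. Their widths ran from 1159 bp to 11596 bp, and together they covered 18.2% of the span. The symbol is also carried by a second identifier with a span of 1002 bp, and its 1 wide peak was annotated to exon 93 of the same 116.

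*DST*, the cytoskeletal linker dystonin, carried 9 wide peaks on chromosome 24, on 2 listed transcripts of 44 and 95 exons, which covered 15.1% of the longer span of 454290 bp. *MACF1*, a linker of microtubules and actin, carried 7 on chromosome 3 that covered 10.5% of 257457 bp. *CEP350*, a centrosomal protein, carried 8 that covered 60.1% of 134694 bp, the largest coverage of these 6 genes, and its widest (17439 bp, exon 26 of 37) lay at 60620331 to 60637769. *CEP290*, which acts at the base of the cilium, carried 8 that covered 34.0% of 105908 bp. *DNAH11*, a heavy chain of the axonemal dynein motor, carried 7 that covered 7.93% of 403447 bp. Among these 6 genes the order by number was not the order by span. *CEP350* and *CEP290* carried 8 each on shorter spans than *MACF1* and *DNAH11* with 7 each. The part of span in these numbers was not tested. *CROCC*, *PCM1* and *CENPF* also had 7 each and were not among the 6 because ties were ordered by identifier. The 7 of *CENPF*, a kinetochore protein, were 3 stretches when neighbours within 200 bp were joined, those of *CEP350* 6, those of *CEP290* 7 and those of *SYNE2* 12, whereas *DST*, *DNAH11* and *MACF1* kept their numbers.

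**Figure D3:**
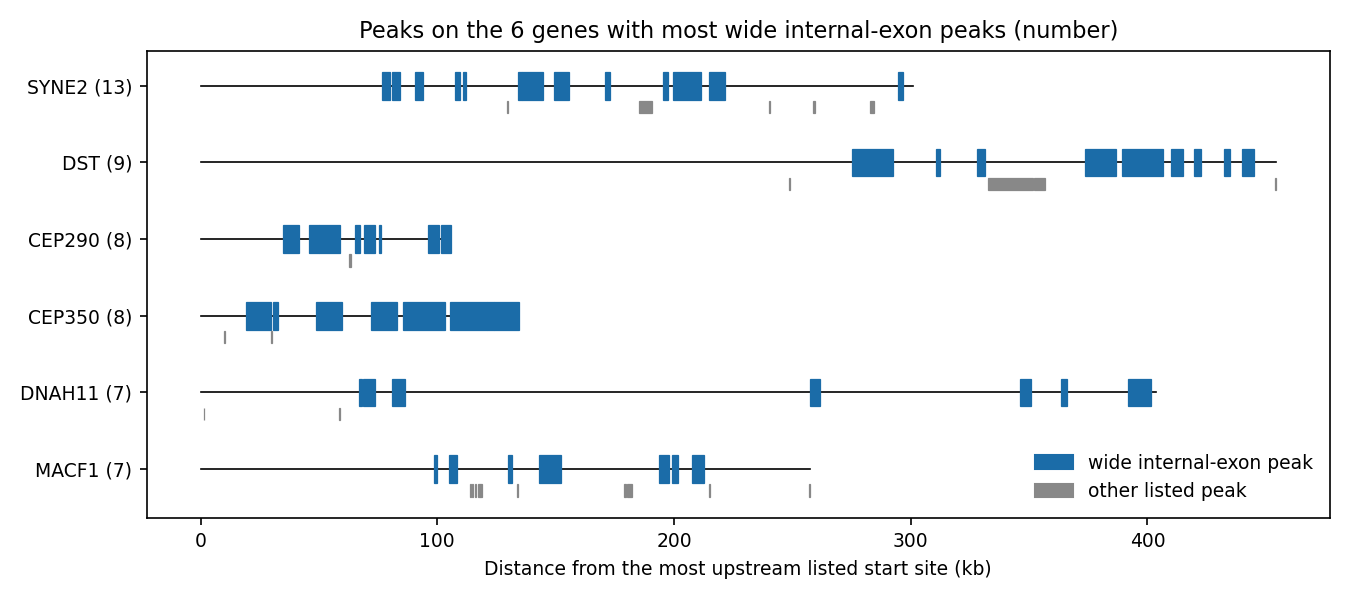
Listed peaks on the 6 genes with the most wide internal-exon peaks, by distance in kb from the most upstream listed start site, with the transcript span as a line, wide peaks as large boxes and all other listed peaks as small boxes under it. On *SYNE2* the most upstream of 13 wide peaks starts 76.7 kb from the start site, and on *CEP350* 8 cover 60.1% of the span.

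The 6 genes differed in expression although all were rich in wide peaks. *DST* had 15.4, 20.1 and 22.5 FPKM in TES5, TES6 and TES7, a mean of 19.3 ± 3.62 (SD, n = 3). *MACF1* had 10.9, 14.8 and 15.6 FPKM, and *SYNE2* 6.01, 9.01 and 8.39 FPKM. These 3 linkers were lowest in TES5. *CEP350* had 7.16, 7.09 and 7.67 FPKM, *DNAH11* 3.48, 5.07 and 4.13 FPKM, and *CEP290* 1.67, 1.58 and 1.64 FPKM, a mean of 1.63 ± 0.0454 (SD, n = 3). The animals did not overlap between *DST* and *CEP290*, which carried 9 and 8 wide peaks at levels far apart. Over the 42 of the 43 genes with 5 or more wide peaks that have an FPKM, the mean FPKM ran from 1.22 for *CENPE*, a kinesin of the kinetochore, to 73.8 for *SPTAN1*, the alpha spectrin of the membrane skeleton, with a median of 7.62. Their median span was 152166 bp. Across the 3478 genes with a wide peak and an FPKM, Spearman's rank correlation for the number of wide peaks was 0.29 with the span and 0.01 with the mean FPKM, a description across genes that share libraries.

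Wide peaks shared their genes with peaks of other classes. A further peak of the 3' UTR class was found on 21.1% of the 3553 genes (19.8% to 22.5%), a narrow internal-exon peak on 19.98% (18.7% to 21.3%), a 5' UTR peak on 11.4% (10.4% to 12.5%), a first-exon peak on 8.78%, a last-exon peak on 6.95% and an internal-exon peak over 50000 bp on 1.63%. No peak of another class was found on 45.8% of the genes. Among the 1244 genes with a narrow internal-exon peak and no wide one, 18.2% had a 3' UTR peak (16.1% to 20.4%), 7.80% a 5' UTR peak (6.43% to 9.42%), and 10.05% a last-exon peak (8.50% to 11.8%). The intervals overlap for the 3' UTR class and do not overlap for the 5' UTR class, which was more frequent with wide peaks, and the last exon, which was less frequent. These comparisons hold against the genes with narrow peaks alone. The shares over all genes with a peak are not given here, so none of them can be called particular to genes with wide peaks. Wide peaks that reach the 3' end cover the last exon without being counted in its class. A first-exon peak was on 10.1% of the genes with narrow peaks alone (8.57% to 11.9%) and 8.78% of those with wide peaks (7.89% to 9.76%), and these intervals overlap. Of the wide peaks, 17 (0.341%, 0.213% to 0.545%) overlapped another listed peak by at least 1 base, against 0.429% of the narrow peaks (0.240% to 0.766%) and 2.31% of all listed peaks. The intervals of wide and narrow peaks overlap.

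For 88 wide peaks (1.76%, 1.43% to 2.17%) the listed gene and the gene of the annotated exon differed, and for 8 the exon came from a transcript without a gene identifier. This touches named genes. The wide peak of *RPL31* was annotated to exon 19 of 20 of another identifier, and that of *METTL16* was 31230 bp wide on a listed transcript of 1032 bp and was also annotated to an exon of another identifier.

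Expression of the genes with wide peaks was then compared with that of the 1173 genes with a narrow internal-exon peak, no wide one and an FPKM, to ask whether width goes with the level of the transcript. FPKM (fragments scaled by transcript length and by library size) were as deposited. The median of the genes with a wide peak was 8.09, 8.55 and 8.50 FPKM in TES5, TES6 and TES7 (8.38 ± 0.251, SD, n = 3). The median of the genes with narrow peaks alone was 4.71, 4.83 and 4.74 FPKM (4.76 ± 0.0594, SD, n = 3). The animals did not overlap, and the genes with a wide peak were higher in all 3. The 4124 other genes with a peak, with neither a wide nor a narrow internal-exon peak, stood in between. Their median was 7.13, 7.08 and 6.98 FPKM (7.06 ± 0.0746, SD, n = 3), closer to the genes with a wide peak than to those with narrow peaks alone. On the scale of log2(FPKM + 1), the medians of the genes with a wide peak and of those with narrow peaks alone differed by 0.67, 0.71 and 0.73. The mean was 0.70 ± 0.0290 (SD, n = 3). The exact sign-flip permutation test (two-sided) gave p = 0.25, the smallest that 3 animals allow, so the design could not reach 0.05.

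The difference was smaller among genes above an expression minimum. An FPKM of at least 1 in all 3 input libraries was found for 92.5% of the genes with a wide peak (91.6% to 93.3%) and for 78.0% of those with narrow peaks alone (75.5% to 80.3%), against 54.4% of all 20953 genes and 86.9% of the genes with any peak. Among genes that passed this minimum, the difference was 0.33 ± 0.0122 on the log2(FPKM + 1) scale (SD, n = 3). Without the minimum it was also 0.33 against all other genes with a peak, which include those with narrow peaks alone. In 5 groups of equal size by transcript span, the difference from genes with narrow peaks alone was 0.70, 0.70, 0.61, 0.67 and 1.22 from the shortest to the longest. Genes with a wide peak were thus higher than these in each of the 5 groups. Peak calling needs reads, and the part of read coverage in this difference was not tested.

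Genes with a peak were cut into 5 groups of equal size by mean FPKM. A wide peak was carried by 26.6% of the lowest group (24.6% to 28.7%), then by 40.7%, 43.9% and 45.9%, and by 41.1% of the highest (38.8% to 43.4%). In 5 groups by transcript span the shares rose from 10.4% (9.07% to 11.9%) through 30.9%, 44.8% and 54.7% to 56.9% (54.6% to 59.1%). The rule needs at least 3 exons and a width over 1000 bp, so the low share of the shortest group, with spans from 150 to 7239 bp, follows in part from the rule, and the rise with span is given as a description. Spearman's rank correlation between the median width of a gene's wide peaks and its FPKM was -0.07, across the same 3478 genes. In the most expressed of 5 groups of these genes the median width was 3907 bp (3623 to 4430) and the median span 32933 bp, against 5215 bp (4752 to 5846) and 64787 bp in the least expressed group, so span changed together with width. The spread between animals was small for both sets of genes at an FPKM of at least 1, with a median coefficient of variation of 11.2% for wide and 11.4% for narrow peaks alone.

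**Figure D4:**
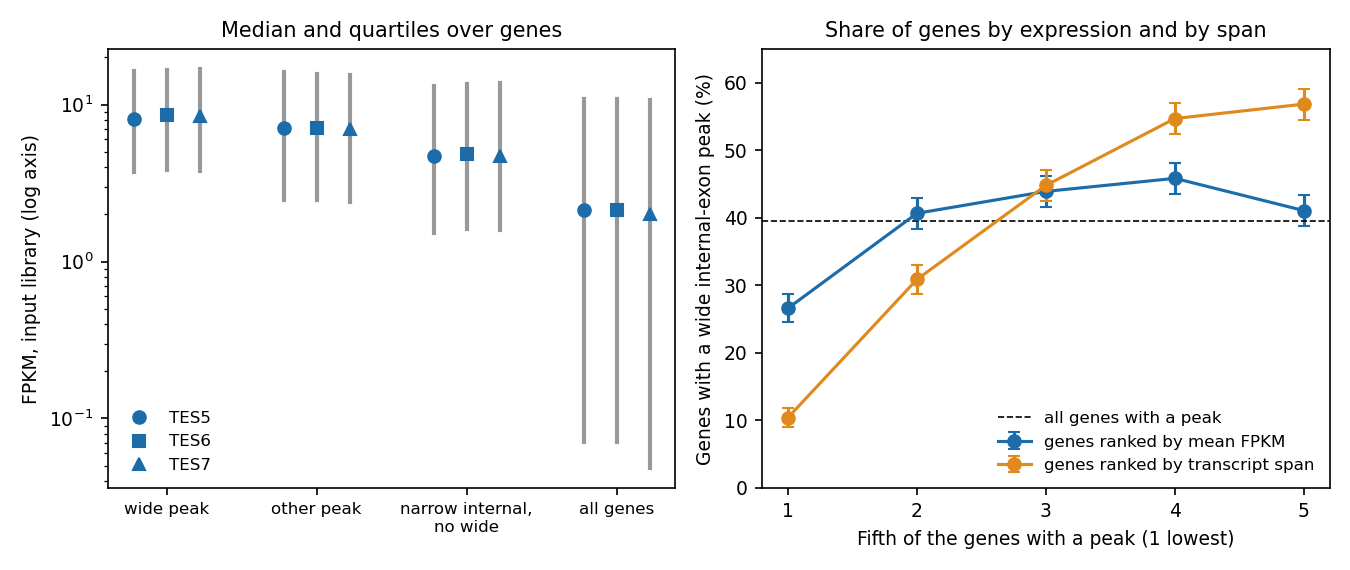
Left, median (symbols) and quartiles (grey lines) over genes of the FPKM in each input library on a log axis, for 4 sets of genes. Right, percent of genes with a peak that carry a wide internal-exon peak, in 5 groups of equal size by mean FPKM and by transcript span, with 95% Wilson intervals. The medians of the genes with a wide peak lie at 8.09 to 8.55 FPKM, above the 4.71 to 4.83 FPKM of those with narrow peaks alone, and the share by span climbs from 10.4% to 56.9%.

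The 5 genes with a wide peak and the highest mean FPKM were *RPL31*, *BUD23*, *RPL23*, *HSP90B1* and *SERPINA5*. *RPL23*, a protein of the large ribosomal subunit, had 698, 782 and 781 FPKM, and its 3030 bp peak lay at exon 3 of 4 on chromosome 19 at 27042222 to 27045251. *BUD23*, a methyltransferase of ribosomal RNA, had 907, 900 and 814 FPKM, with a 5589 bp peak at exon 10 of 12. *HSP90B1*, the chaperone of the endoplasmic reticulum, had 454, 456 and 447 FPKM and 3 wide peaks, at exons 4, 7 and 13 of 18, the widest of 4035 bp. *SERPINA5*, a serine protease inhibitor made in the male tract, had 355, 296 and 325 FPKM with a 2193 bp peak at exon 2 of 5. *RPL31*, another ribosomal protein, headed the order with 896, 915 and 978 FPKM, but its peak was annotated to the exon of another identifier. *RPL31*, *BUD23* and *RPL23* stood apart from *HSP90B1* and *SERPINA5* in all 3 animals, and *RPL31* and *BUD23* overlapped in their values. The wide peaks of these 5 genes ran from 1193 bp to 5589 bp.

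The genes with a wide peak that varied most between animals were highest in TES5 and lowest in TES7. Among those with a mean of at least 10 FPKM, *HJV*, a co-receptor of bone morphogenetic proteins, had 24.2, 11.3 and 3.65 FPKM in TES5, TES6 and TES7. *TAF1C*, a subunit of the selectivity factor of RNA polymerase I, had 50.4, 29.8 and 8.45 FPKM and a 14767 bp wide peak at exon 4 of 12. Without TES5 the mean was 7.47 FPKM for *HJV* in place of 13.0 and 19.1 FPKM for *TAF1C* in place of 29.6. *ADAD1*, a testis protein with an adenosine deaminase domain, had 38.9, 19.9 and 13.0 FPKM. All these genes kept the order of the animals, as did *TSACC*, a co-chaperone of a testis kinase, with 22.4, 18.2 and 6.52 FPKM, and *FAM216A* with 66.7, 31.3 and 30.05 FPKM. Of 1513 genes with a wide peak at that minimum, 30 had a coefficient of variation of at least 30%, and 24 of the 30 were highest in TES5. Among all genes 269 of 5571 passed both limits, and 197 of these were highest in TES5.

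The genes were then read by function, with lists of genes written with earlier results of these data known. Over all symbols with a peak, 43% (3351 of 7802) carried a wide one, and their median span was 33367 bp. Cytoskeletal and centrosomal lists lay far above this share, and their median spans were longer. Gene ontology terms of such functions were lower, with 55.3% for centrosome, 48.2% for cytoskeleton and 36.7% for actin cytoskeleton. The share was 39.9% over all genes with a peak and a term. Of the centrosome and cilium base genes with a peak, 31 of 33 carried a wide peak, with 95 wide peaks in all and a median span of 94314 bp. Only *CEP120* and *NIN* had a peak and no wide one. *PCM1*, which builds centriolar satellites, had 15.7, 17.9 and 16.8 FPKM and 7 wide peaks from exon 2 to exon 40 of 42. *CROCC*, the rootlet protein, had 5.24, 5.98 and 6.21 FPKM and 7 wide peaks on a span of 51010 bp.

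Of the kinesins and spindle or kinetochore genes 34 of 38 carried a wide peak, among them *CENPF* with 7, *CENPE* with 6, and *KIF21A* and *KIF9*, kinesin motors, with 5 each. Of the giant linkers, spectrins and ankyrins 16 of 20 did, with 69 wide peaks, the most per gene of these lists. The axonemal dyneins and genes of intraflagellar transport, the traffic along the flagellum, had 20 of 28, among them *IFT81*, with a 40665 bp wide peak, and *IFT88*, both of the transport complex. In the longest of the 5 groups by span, 56.9% of gene identifiers carried a wide peak (39.5% over all groups), and these lists lay above that share as well. The lists count symbols (43% over all symbols with a peak), so these shares are not counted alike. No test of a list was made.

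Chromatin and DNA methylation enzymes had 40 of 50 genes with a wide peak and ubiquitin ligases and deubiquitinases 36 of 46, with median spans of 77255 bp and 107396 bp. *CHD1*, a chromatin remodeller, had 5 wide peaks and 9.44, 10.4 and 12.0 FPKM. *NSD1*, a histone H3 methyltransferase, had 4, the widest of 21462 bp, and 14.8, 18.1 and 18.2 FPKM. *HUWE1*, a giant ubiquitin ligase on chromosome X, had 5, at exons from 32 to 72 of 85, and 16.4, 23.0 and 24.0 FPKM. Each of these 3 genes was lowest in TES5.

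The lists for meiotic chromosomes and the piRNA pathway were also above the 43% of all symbols. The broader gene ontology term spermatogenesis was not high, with 41 of 106 genes (38.7%, 29.96% to 48.2%). The share over all genes with a peak and a term was 39.9%. A high share thus held for these lists and not for germ cell genes in general. The meiotic chromosome genes had 14 of 23 (60.9%), with a median span of 53955 bp. The list for the piRNA pathway, which silences transposons in germ cells, had 8 of 11, with 85561 bp. Its 8 genes include *TDRD3*, whose place in this pathway is uncertain. In the group of all genes with a peak by span that holds both medians, 54.7% carried a wide peak, counted by gene identifier and not by symbol. *SMC1B*, the meiotic cohesin subunit, had 3 wide peaks of 12859 bp, 17125 bp and 23449 bp at exons 2, 12 and 15 of 25, and 14.1, 10.7 and 10.2 FPKM. *TEX14*, needed for the bridges between germ cells, had 3 and 13.3, 11.9 and 10.5 FPKM. *SYCP2*, of the axial element, had 2 and 4.98, 4.46 and 3.64 FPKM, and *ANKRD31*, which acts in meiotic break formation, had 3 and 4.93, 5.26 and 4.80 FPKM. Of the piRNA genes, *RNF17* had 3 wide peaks and 13.3, 11.8 and 8.02 FPKM, *TDRD7* had 1 of 21970 bp and 15.03, 14.2 and 10.5 FPKM, and *PIWIL2*, a PIWI protein, had 1 of 1585 bp and 14.6, 17.1 and 17.1 FPKM. *SMC1B*, *TEX14*, *SYCP2*, *RNF17* and *TDRD7* were highest in TES5, and *PIWIL2* was lowest there. The DNA damage and Fanconi anemia genes had 13 of 25. *FANCI* had 2 wide peaks, the second of 1450 bp ending at the 3' end of its transcript at 21320803 on chromosome 17, and 37.6, 33.2 and 26.6 FPKM.

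Of the 15 genes of the m6A machinery with a peak, 7 carried a wide one, or 6 when the exon had to be that of the listed transcript, which left *METTL16* out. *METTL14*, the partner of METTL3 in the writer, had 2 neighbouring wide peaks on chromosome 6, at 121540424 to 121542063 (exon 9 of 11) and 121542161 to 121551862 (exon 10), the second reaching past the 3' end of the transcript at 121551559. Its FPKM was 5.86, 5.73 and 6.25. *VIRMA*, a scaffold of the writer, was listed under 2 identifiers, with 2 wide peaks at 2.94, 2.82 and 2.73 FPKM on one and 1 at 24.3, 24.2 and 27.1 FPKM on the other, so its level depended on the identifier. *YTHDC1*, the nuclear reader, had 1 wide peak of 7886 bp at exon 10 of 16, near the 3' end, and 20.8, 20.8 and 22.1 FPKM. *YTHDC2*, a reader with helicase activity needed in meiosis, had 1 of 2666 bp at exon 8 of 29 and 8.83, 8.63 and 8.54 FPKM. *IGF2BP1* and *IGF2BP2*, readers that stabilise transcripts, had 1 each at mean levels of 3.83 and 3.07 FPKM. The erasers *FTO* and *ALKBH5* had none. The 2 peaks of *FTO* were in the 5' UTR and in an internal exon over 50000 bp, and those of *ALKBH5* in the first exon and the 3' UTR, at 5.49 and 77.4 FPKM. *RBM15*, *RBM15B*, *ZC3H13*, *YTHDF2*, *IGF2BP3* and *FMR1* had peaks of other classes too.

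Signalling lists lay on both sides of the 43%. The MAP kinase cascade had 19 of 30, among them *SOS1*, an activator of Ras, with 5 wide peaks and 4.17, 4.90 and 4.18 FPKM. This share depended on the list. The KEGG pathway of MAPK signaling had 24 of 76 genes (31.6%, 22.2% to 42.7%), beside 39.5% of all gene identifiers with a peak. The apoptosis genes had 6 of 16, among them *PARP1*, the DNA break sensor, with 2 and 56.9, 62.4 and 60.0 FPKM. Of the TGF-beta, Notch and Wnt genes 13 of 36 carried a wide peak although their median span was 63847 bp. *LRP6*, a Wnt co-receptor, had 3, and *CTNNB1*, the Wnt effector beta-catenin, had 1 of 2082 bp on a listed transcript of 3146 bp with 3 exons. Among lists with at least 7 genes with a peak, the share was lowest for the respiratory chain, followed by the ribosomal proteins. The cytosolic ribosomal proteins had 2 of 7, with a median span of 5743 bp, and the respiratory chain, with 21404 bp, 1 of 8, *NDUFA10* with 93.1, 88.7 and 83.4 FPKM.

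**Figure D5:**
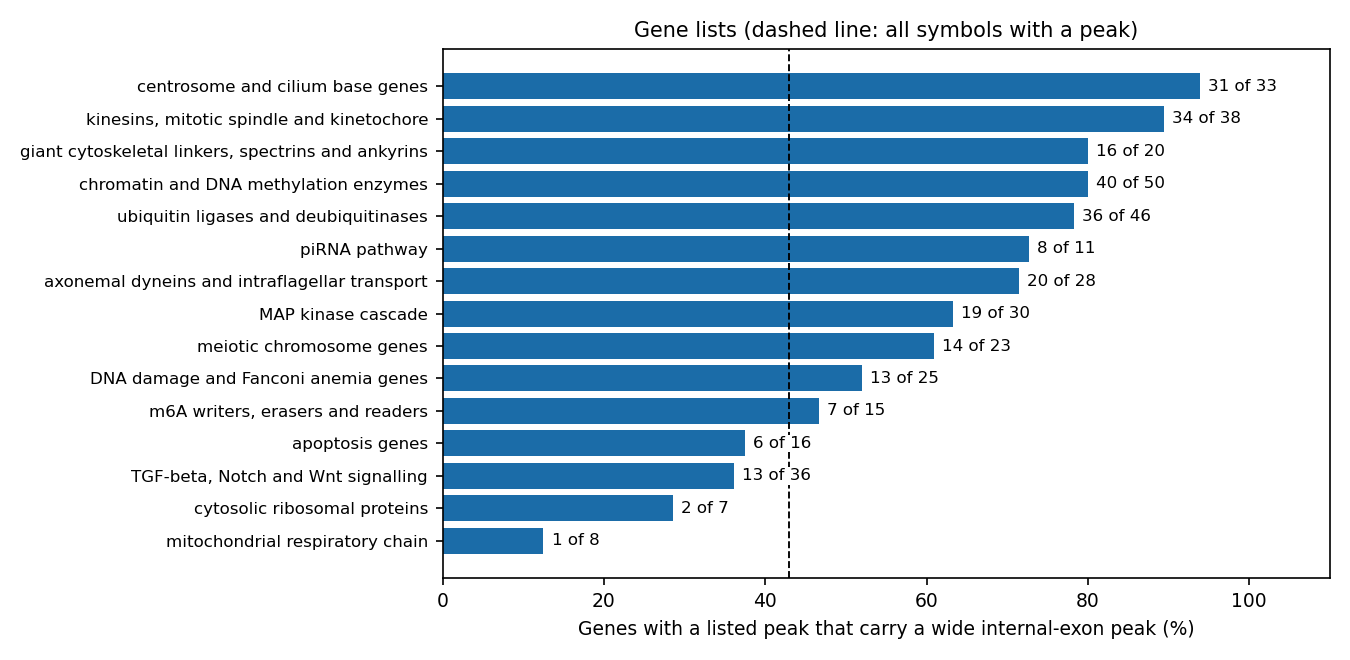
Percent of the genes with a peak in each list that carry a wide internal-exon peak (bars, with the counts), for the lists described here with at least 7 genes with a peak, beside the 43% of all symbols with a peak (dashed line). The bars run from 31 of 33 centrosome genes to 1 of 8 respiratory chain genes.

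Markers of the cell types of the testis could be looked up only for genes with a peak, since the symbols came from the peak list. The Sertoli cell markers *SOX9*, *WT1* and *FSHR* had peaks but no wide one, and stood at 27.5, 29.6 and 7.73 FPKM. The 1 Leydig cell marker with a peak, *STAR*, which brings cholesterol into mitochondria for steroid synthesis, had a 3188 bp wide peak at exon 3 of 7 and 100, 108 and 112 FPKM. Peritubular markers had 3 of 5, among them the smooth muscle myosin *MYH11* with 4 wide peaks and 26.9, 30.8 and 30.6 FPKM. Of the spermatogonial markers *KIT*, the receptor for stem cell factor, was the 1 of 3 with a wide peak, at 8.64, 9.23 and 12.2 FPKM. Of the spermatocyte markers *SYCP1*, of the synaptonemal complex, was the 1 of 2, with a 42640 bp wide peak at exon 27 of 33 and 6.71, 4.76 and 4.85 FPKM. None of the 6 spermatid markers could be looked up. Blood and endothelial markers had 3 of 5, and *PTPRC*, the pan-leukocyte receptor, had 3 wide peaks at 3.69, 5.08 and 5.73 FPKM, while the macrophage receptor *CD163* had 3 at 3.64, 4.50 and 6.61 FPKM. The wide peaks thus lay on transcripts of germ cells, somatic cells and blood cells, and which cells carried the mark was not measured.

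Of the genes that the study names for this tissue, *SYNE2* is described above. *CREB1*, a transcription factor of the cyclic AMP response, had a 9149 bp wide peak at exon 4 of 8 on chromosome 2 at 44863860 to 44873008 and 7.82, 7.57 and 8.45 FPKM. *NFE2L3*, a transcription factor of the cap'n'collar family, was listed under 3 identifiers, of which that with 8.68, 6.81 and 8.02 FPKM carried a 2848 bp wide peak at exon 4 of 6. *VGLL3* and *DONSON* had no wide peak.

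Among 24 KEGG pathways with at least 50 genes with a peak, the share with a wide one was highest for endocytosis (40 of 75 genes, 53.3%, 42.2% to 64.2%) and lowest for Alzheimer disease (15 of 72 genes, 20.8%, 13.1% to 31.6%). Herpes simplex virus 1 infection, which held the most genes, had 292 of 662 (44.1%). Hippo signaling (24.0%) and PI3K-Akt signaling (26.3%) were also low, with median spans of 27989 bp and 26010 bp, while that of endocytosis was 27847 bp. These shares can be read against the 39.5% of all gene identifiers with a peak. By chromosome, wide peaks made up from 27.6% of the exon peaks on chromosome 20 (24.4% to 31.1%) to 51.9% on chromosomes 6 (46.8% to 57.0%) and 27 (44.7% to 59.1%), and 34.1% on X (29.6% to 38.9%). The interval of chromosome 20 does not overlap those of chromosomes 6 and 27. These chromosomes were picked as the extremes of this share, so this is a description, and no chromosome was tested.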

How the data were processed

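Testis RNA of 3 cattle-yaks was profiled by MeRIP-seq, with 1 IP and 1 input library per animal. As the study's methods state, the authors trimmed reads with Trimmomatic, removed ribosomal RNA, aligned the rest to LU_Bosgru_v3.0 (Ensembl release 99) with HISAT2 (2.0.4 in the submitters' processing notes), called peaks with MeTDiff (fragment length 200) and annotated them with ChIPseeker. How the animals were combined into 1 peak list is not given in the sources used here. The authors deposited FPKM of 20953 genes in the input libraries, computed with a program not given in the sources used here. FPKM keep no read numbers, so the depth is unknown and no count model was used.

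Listed peaks were selected by annotation and width and joined to FPKM by gene identifier. Of 3553 genes with a wide peak 3478 had an FPKM, and 75 were left out of expression. Expression was compared on log2(FPKM + 1), pseudocount 1, by an exact sign-flip permutation test over animals. Calculations ran in Python 3.11.15 with pandas 2.3.3, numpy 2.4.6 and SciPy 1.17.1, plots in matplotlib 3.10.9, and the functions were tested on simulated data.

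The members of the class and the gene lists were chosen with earlier results of these data known. Named genes were the 6 with the most wide peaks, the peaks at the width bounds, the 5 highest in FPKM, the 5 with the largest coefficient of variation at a mean of at least 10 FPKM, up to 4 per list with the most wide peaks, and genes the study names. *CROCC*, *PCM1*, *CENPF*, *CENPE* and *SPTAN1* were also named for their number of wide peaks or level after the values were seen, as were listed genes without a wide peak. Symbols came from the peak list. No sequence was printed, since no genome of this build was used here. The alternatives tried were an expression minimum, other width and exon limits, each gene counted once, strands apart, another pseudocount and each animal left out. A few genes and 1 gene list are not reported here.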

Additional observations from a re-analysis of the deposited data

How the results depend on the processing

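No paired analysis was possible because the animals form 1 group, so no groups share replicate numbers, and the expression difference was itself taken within each animal. Settings marked as chosen after seeing the data are named as such. The share of genes with 2 or more wide peaks (27.0%) was 29.99% when genes were counted by symbol and 25.5% when neighbours within 200 bp were joined, the latter chosen after seeing the data. The share at exon 2 (11.1%) and at the last exon but one (9.04%) was 12.8% and 10.5% with each gene counted once, 7.90% and 5.71% in transcripts with 10 to 30 exons, where fewer peaks fall on any 1 exon, and 12.1% and 3.12% without peaks within 200 bp of the 3' end, chosen after seeing the data, which removes peaks of the last exon but one by construction. Without these peaks the exon position was 0.42 in place of 0.5 and the centre lay at 65.9% of the span in place of 71.6%. The centre was at 74.2% on the plus and 68.5% on the minus strand, and the cause was not tested. The expression difference of 0.70 lay between 0.69 and 0.72 when 1 animal was left out, was higher in every animal under all settings run, and fell to 0.33 with a minimum of 1 FPKM, where fewer genes were compared, and to 0.33 against all other genes with a peak. Beside these, the share of overlapping peaks was 0.220% in place of 0.341% when an overlap of at least 0.5 of the peak was needed. Of the values for single genes and lists, those that moved by over 1.5 times were as follows. The cytosolic ribosomal proteins had 1 in place of 2 genes when the exon had to be that of the listed transcript, and without TES5 the mean FPKM of *HJV* was 7.47 in place of 13.0 and that of *TAF1C* 19.1 in place of 29.6. With 3 animals no p under 0.25 can be reached, and widths count introns.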

Other observations

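Gene ontology terms, read after the data were seen, gave the share of genes with a wide internal-exon peak beside 39.9% of all 7944 genes with a peak and a term. Among 178 terms with at least 50 such genes, the share was highest for centriole (35 of 53, 66.0%, 95% interval 52.6% to 77.3%), lamellipodium (31 of 52, 59.6%, 46.1% to 71.8%) and midbody (43 of 74, 58.1%, 46.7% to 68.7%), followed by endocytosis (58%), spliceosomal complex (57.4%), centrosome (55.3%) and DNA repair (54.7%). Related terms did not all stand as high. Cytoskeleton had 48.2% (39.2% to 57.4%) and cilium assembly 47.5%, while cilium (37.7%) and actin cytoskeleton (36.7%) were under the 39.9%. Centriole and spliceosomal complex had median spans of 21896 bp and 18917 bp, and lamellipodium 51258 bp. Short spans were not particular to such terms, since cytosol (42.9%) and nucleoplasm (46.3%) had 22991 bp and 24854 bp.

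The lowest shares were 16.7% for the lysosomal membrane (11 of 66, 9.57% to 27.4%), 17.6% for G protein-coupled receptor activity (9 of 51, 9.57% to 30.3%), 20.8% for integral components of membrane (172 of 828, 18.1% to 23.7%), 21.1% for the mitochondrial matrix and 22.2% for the mitochondrial inner membrane. Their median spans lay from 13002 bp to 23889 bp. Other membrane and mitochondrial terms were higher, with 42.3% for membrane (172 of 407), 40% for endosome membrane, 38.2% for Golgi membrane and 32.7% for mitochondrion. The terms were ranked by this share, so the extremes are a description, and no term was tested.

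Of the genes with a wide internal-exon peak and an FPKM, 23 were listed at 0 in every library, among them the *METTL16* identifier named above. An FPKM of 0 can be a failed estimate.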
